A study of Mus musculus with 12 samples.

Results

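The 8 Schwann cell myelin genes *Mbp*, *Pmp22*, *Mag*, *Prx*, *Egr2*, *Sox10*, *Mal* and *Cnp* were chosen by name, as genes of peripheral myelin and of the cells that make it, and each symbol was matched to 1 Ensembl gene of the table of 55450 genes. They were followed in the 12 libraries of the tibialis anterior (TA), a shin muscle that lifts the foot, from wild-type mice. All mice were of the genotype WT on the genetic background 129Pas, and none was treated. There were 4 mice at E18.5, a late embryonic stage, 4 at 2 weeks and 4 at 7 weeks, and the series was made to study splicing as muscle matures. RNA came from pieces of whole muscle, so each library holds the RNA of muscle fibres, nerve, vessels and connective tissue together.

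Schwann cells are the glia of peripheral nerve. As a motor nerve matures, some of them each wrap a single axon in many turns of membrane, and this myelin sheath lets impulses travel fast. The transcription factor *Sox10* is needed in the lineage from its origin, *Egr2* (also called Krox20) turns on the myelin genes, and the sheath itself is built of proteins such as *Mbp* and *Pmp22*. Motor nerves branch inside a muscle, so the Schwann cells of these branches are sampled with it.

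Library totals ran from 63018968 to 123449246 counts, and all 8 genes passed the filter on low counts. The lowest count of any of them in any library was 41, for *Sox10* at 7 weeks. Levels are given in CPM, the count relative to a library total that was first scaled by the trimmed mean of M-values (TMM). Differences are log2 fold changes with their standard error (SE) from edgeR, with Benjamini-Hochberg adjusted p-values over 19276 genes. The TMM factors were 1.62 to 1.77 at E18.5, 0.811 to 0.946 at 2 weeks and 0.667 to 0.699 at 7 weeks. In RNA of a whole muscle, fewer Schwann cells and less RNA per Schwann cell cannot be told apart.

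On the mouse assembly GRCm38.p6, RefSeq places *Mbp* on the plus strand of chromosome 18, from 82475091 to 82585637. *Pmp22* lies on chromosome 11 from 63128982 to 63159547 and *Cnp* on the same chromosome from 100574909 to 100591875, both on the plus strand. *Prx* is on chromosome 7 from 27499305 to 27520041 (plus strand) and *Mag* from 30899175 to 30914922 (minus strand). *Egr2* is on chromosome 10 from 67534469 to 67542188 (plus strand), *Sox10* on chromosome 15 from 79154913 to 79164490 (minus strand) and *Mal* on chromosome 2 from 127633226 to 127656695 (minus strand). A counted gene overlaps 4 of them on the opposite strand, a pseudogene at *Mbp*, a long non-coding RNA each at *Mag* and *Prx*, and the protein-coding *Dnajc7* at *Cnp*.

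In these genes 3 libraries stood apart, E18.5 replicate 2 and 2 weeks replicates 1 and 4. In 2 weeks replicate 1 all 8 genes lay above the mean of their age on the log2 scale, with a median deviation of 1.097 and a highest of 1.55 for *Mbp*. In E18.5 replicate 2 all 8 were above it too, with a median of 0.59. In 2 weeks replicate 4 all 8 were below, with a median of -0.80. All 8 were also below in E18.5 replicates 3 and 4, but by less, with medians of -0.15 and -0.34. Beside many of the results, fits without 1 or more of the libraries that stood apart are given.

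The Schwann cell origin was checked against other glia and cells. Oligodendrocytes, the myelinating cells of the brain and spinal cord, share *Mbp*, *Mag*, *Cnp* and *Mal* with Schwann cells. The 6 oligodendrocyte markers together held 52 to 390 counts in a library at E18.5, 12 to 16 at 2 weeks and 0 to 4 at 7 weeks, when 4 of the 6 were at 0 in every library. The 6 axon genes, whose RNA lies mostly in nerve cell bodies outside the muscle, summed to 5.85 to 10.7 CPM at E18.5, 8.32 to 10.7 CPM at 2 weeks and 8.36 to 10.2 CPM at 7 weeks. The gene with the highest mean at each age was *Stmn2*, at 3.42 to 4.32 CPM at E18.5 and 4.31 to 6.43 CPM at 2 weeks, and single axon genes moved in opposite directions to 2 weeks. *Nefl* went from 0.334 to 1.63 CPM to 0 to 0.0515 CPM (edgeR adjusted p = 4.37e-05), and *Nefm* and *Snap25* also fell. *Prph* rose by 1.98 (SE 0.55, edgeR adjusted p = 0.00607), and *Nefh* and *Stmn2* rose as well. The summed markers of keratinocytes, fibroblasts, axons and muscle fibres were each highest of their age in E18.5 replicate 2. The axon sum was 10.7 CPM there and 5.85 to 6.98 CPM in the other E18.5 libraries. For muscle fibres it was 15823 CPM against 8390 to 10329 CPM. Sums of oligodendrocyte and T cell markers were highest in E18.5 replicate 3. The sum of perineurium (nerve sheath) markers was lowest in E18.5 replicate 2, at 101 CPM. The 4 keratinocyte markers summed to 29.9 CPM in E18.5 replicate 2 and to 2.02 to 6.86 CPM in the other E18.5 libraries. The 4 fibroblast markers summed to 3527 CPM against 1504 to 2194 CPM. *Col1a1* held 2404 CPM of that 3527 CPM, the top of its E18.5 range of 674 to 2404 CPM. Ranges at E18.5 were narrower for *Dcn* (483 to 747 CPM), *Lum* (234 to 408 CPM) and *Pdgfra* (113 to 183 CPM). In 2 weeks replicate 1 the keratinocyte sum was 4.09 CPM, beside 3.75, 2.82 and 3.54 CPM in replicates 2 to 4. Its fibroblast sum of 1652 CPM was the lowest of its age. The part of these cells in the results was not tested.

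**Figure D1:**
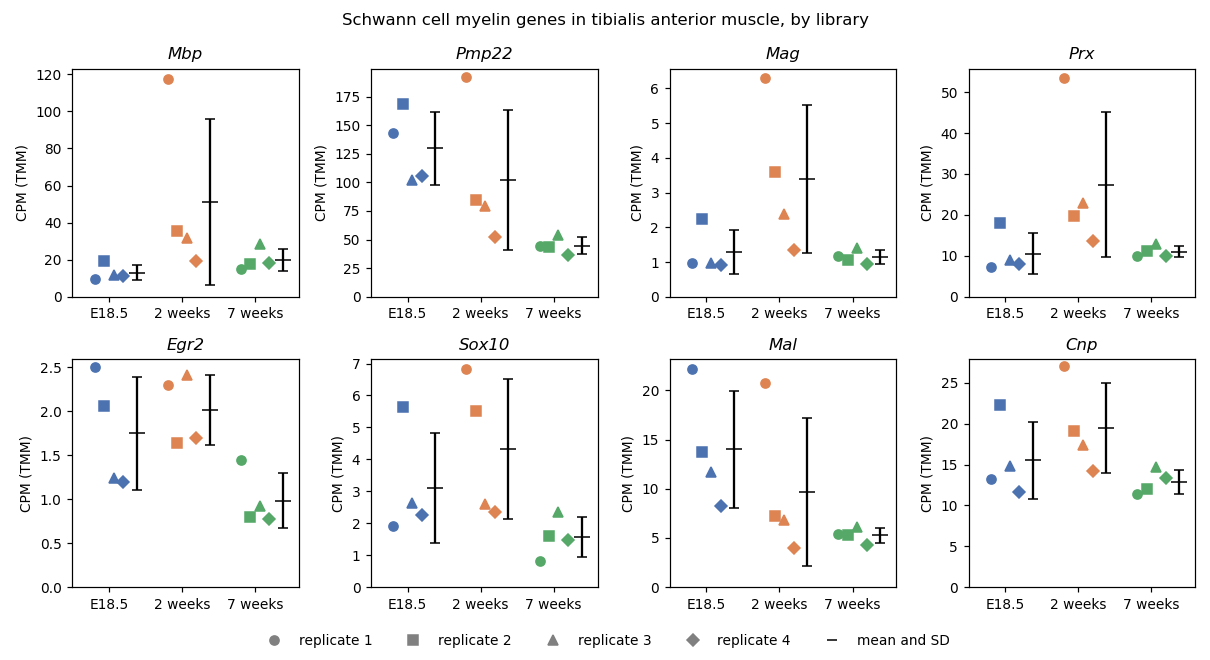
Level of each gene in CPM (TMM, y axis from 0) by age (x axis), with 1 marker per library and replicate and a bar for the mean ± SD of 4 mice. In 2 weeks replicate 1, the orange circle, *Mbp* stood at 118 CPM where the other libraries of that age were at 19.6 to 35.6 CPM, and *Pmp22* and *Mal* had 7-week points that all lie under the E18.5 points.

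The transcription factors come first. *Sox10*, which Schwann cells hold at every stage, stood at 1.91, 5.63, 2.62 and 2.25 CPM in E18.5 replicates 1 to 4. It stood at 6.84, 5.502, 2.601 and 2.36 CPM at 2 weeks and at 0.822, 1.61, 2.36 and 1.47 CPM at 7 weeks. The E18.5 and 2-week libraries overlapped, and the highest 7-week library was just under the lowest 2-week library. From E18.5 to 2 weeks the log2 fold change was 0.48 (SE 0.42, edgeR adjusted p = 0.331), and from 2 to 7 weeks *Sox10* fell by 1.46 (SE 0.44, edgeR adjusted p = 0.0242, lower in all 16 pairs of libraries). The second change was -1.17 once 2 weeks replicate 1 was left out (edgeR adjusted p = 0.0858). Its call was lost in 5 of the 12 fits that left out 1 library.

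*Egr2* stood at 2.501, 2.06, 1.24 and 1.19 CPM at E18.5, at 2.30, 1.64, 2.41 and 1.70 CPM at 2 weeks and at 1.44, 0.792, 0.919 and 0.775 CPM at 7 weeks. Here 2 weeks replicate 1 was not the highest of its age, and every 7-week library was below every 2-week library. The change to 2 weeks was 0.20 (SE 0.29, edgeR adjusted p = 0.563), and *Egr2* then fell by 1.04 (SE 0.30, edgeR adjusted p = 0.0223). With 2 weeks replicate 1 left out that change was -0.98 (edgeR adjusted p = 0.0609), which misses the threshold. The call of this fall was lost in 4 of the 12 fits that left out 1 library.

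*Mbp*, the basic protein that holds the inner faces of the compact myelin membrane together, had the largest rise of the 8 to 2 weeks. Its levels were 9.77, 19.3, 11.99 and 11.2 CPM at E18.5, 118, 35.6, 31.7 and 19.6 CPM at 2 weeks and 14.8, 17.7, 28.4 and 18.3 CPM at 7 weeks. Every 2-week library was above every E18.5 library, though 2 weeks replicate 4 was only just above E18.5 replicate 2. *Mbp* rose by 1.97 on the log2 scale to 2 weeks (SE 0.46, edgeR adjusted p = 0.00184). Of the 22 alternative treatments of the counts, all kept this rise past the threshold, with values from 1.09 to 2.25. *Mbp* then fell, from 2 to 7 weeks, by 1.37 (SE 0.45, edgeR adjusted p = 0.0370). Leaving out 2 weeks replicate 1 made that change -0.56 (edgeR adjusted p = 0.192), and the 3 other 2-week libraries averaged 28.9 ± 8.37 CPM (SD, n = 3) against 19.8 ± 5.93 CPM (SD, n = 4) at 7 weeks. Of the 12 fits that left out 1 library, 4 lost the call of this fall.

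*Pmp22*, a membrane protein of compact myelin that many other cells also make, took another course. It stood at 143, 169, 102 and 106 CPM at E18.5, at 192, 84.7, 79.1 and 52.5 CPM at 2 weeks and at 44.1, 43.2, 54.4 and 36.4 CPM at 7 weeks. Apart from 2 weeks replicate 1, every 2-week library was below every E18.5 library, and no 7-week library reached an E18.5 library. The change to 2 weeks was -0.35 (SE 0.32, edgeR adjusted p = 0.347), and without 2 weeks replicate 1 *Pmp22* fell by 0.82 (edgeR adjusted p = 0.00748). It fell by 1.20 from 2 to 7 weeks (SE 0.32, edgeR adjusted p = 0.0147), and this fall passed the threshold in all 22 alternatives, with values from -1.59 to -0.71. Over the whole span it fell by 1.55 (SE 0.33, edgeR adjusted p = 0.000729), again in all 22.

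*Mal*, a lipid raft protein found in myelin and in several epithelia and T cells, stood at 22.2, 13.7, 11.7 and 8.30 CPM at E18.5, at 20.8, 7.20, 6.83 and 3.96 CPM at 2 weeks and at 5.41, 5.29, 6.08 and 4.24 CPM at 7 weeks. The 4 T cell markers summed to 0.693 to 1.501 CPM at E18.5, 0.549 to 0.969 CPM at 2 weeks and 0.413 to 0.802 CPM at 7 weeks. Of these markers only *Cd4* fell over the span, from a mean of 1.005 to 0.167 CPM (edgeR adjusted p = 0.000498), whereas *Cd3e*, a part of the T cell receptor complex, rose from 0.0691 to 0.273 CPM (edgeR adjusted p = 0.000214), and *Cd3g* and *Cd8a*, with highest values of 0.120 and 0.0802 CPM, had too few counts to test. *Mal* fell by 1.41 from E18.5 to 7 weeks (SE 0.43, edgeR adjusted p = 0.00870), and did so in all 22 alternatives. Its changes within either interval missed the threshold, at -0.53 (SE 0.42, edgeR adjusted p = 0.275) and -0.88 (SE 0.42, edgeR adjusted p = 0.137). Without 2 weeks replicate 1 they were -1.19 (edgeR adjusted p = 0.00547) and -0.21 (edgeR adjusted p = 0.688). Without 2 weeks replicate 4 they were -0.26 (edgeR adjusted p = 0.582) and -1.14 (edgeR adjusted p = 0.0497), so the interval in which *Mal* fell changed with the 2-week library left out.

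*Mag* and *Prx* act at the surfaces of the sheath. *Mag* is an adhesion protein of the innermost membrane, next to the axon, and *Prx* (periaxin) ties the outermost membrane to the surrounding basal lamina. *Mag* was scarce, at 0.970, 2.24, 0.985 and 0.927 CPM at E18.5, 6.29, 3.59, 2.38 and 1.33 CPM at 2 weeks and 1.18, 1.06, 1.39 and 0.940 CPM at 7 weeks. *Prx* stood at 7.28, 17.96, 8.93 and 8.03 CPM at E18.5, 53.4, 19.6, 23.0 and 13.6 CPM at 2 weeks and 10.03, 11.1, 12.9 and 9.96 CPM at 7 weeks. For both, E18.5 replicate 2 was far above the other E18.5 libraries and above 2 weeks replicate 4. *Mag* rose by 1.41 to 2 weeks (SE 0.42, edgeR adjusted p = 0.00926) and *Prx* by 1.38 (SE 0.38, edgeR adjusted p = 0.00562). Without E18.5 replicate 2 and 2 weeks replicate 1 the rises were 1.36 (edgeR adjusted p = 0.00383) and 1.23 (edgeR adjusted p = 0.000349). These libraries were picked after the values were seen, as ones where these genes stood high, so these p-values are no independent check. From 2 to 7 weeks *Mag* fell by 1.57 (SE 0.43, edgeR adjusted p = 0.0158) and *Prx* by 1.32 (SE 0.38, edgeR adjusted p = 0.0203). These changes were -1.11 (edgeR adjusted p = 0.0656) and -0.78 (edgeR adjusted p = 0.0823) without 2 weeks replicate 1. Of the 12 fits that left out 1 library, 1 lost the call of the *Mag* fall and 2 that of *Prx*.

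*Cnp*, an enzyme of the cytoplasmic channels of myelin, did not pass the threshold in any comparison of ages with TMM and all libraries. It stood at 13.3, 22.3, 14.9 and 11.6 CPM at E18.5, at 27.1, 19.1, 17.3 and 14.2 CPM at 2 weeks and at 11.4, 12.001, 14.7 and 13.3 CPM at 7 weeks. The libraries of all 3 ages overlapped, and the changes were 0.33 (SE 0.22, edgeR adjusted p = 0.214) and -0.59 (SE 0.23, edgeR adjusted p = 0.0653). The fall from 2 to 7 weeks passed the threshold in 8 of the 22 alternatives, among them those without E18.5 replicate 2 (-0.59, edgeR adjusted p = 0.0311) and without 2 weeks replicate 4 (-0.72, edgeR adjusted p = 0.0387). Without E18.5 replicate 2 *Cnp* also rose to 2 weeks, by 0.55 (edgeR adjusted p = 0.0286). *Cnp* lies across *Dnajc7* on the opposite strand, which held 6.02 to 17.9 times its counts, and without the strand setting of the counting the reads of this pair cannot be told apart.

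The promoters of the pair that rose to 2 weeks with *Mbp*, *Mag* and *Prx*, are set here beside those of the 3 genes that fell over the whole span, *Pmp22*, *Mal* and *Egr2*, since *Egr2* and *Sox10* are known to act on myelin genes. Promoter windows of RefSeq (GRCm38.p6) were used for 6 of the 8 genes. Windows on the chromosome of *Mbp* were left out, and none was matched to *Sox10*. The 5 stretches run from 250 to 21 bases before the start of the most upstream transcript with a window, in the direction of the gene. That start is the first base of the gene for *Mag*, *Pmp22* and *Mal*, and lies at 27499324 for *Prx* and 67535499 for *Egr2*, 19 and 1030 bases inside the gene. They lie at chr7:30914943-30915172 on the minus strand for *Mag*, chr7:27499074-27499303 on the plus strand for *Prx*, chr11:63128732-63128961 on the plus strand for *Pmp22*, chr10:67535249-67535478 on the plus strand for *Egr2* and chr2:127656716-127656945 on the minus strand for *Mal*. Capitals mark a match, on either strand, to the EGR motif GCGTGGG or GCGGGGG or to the SOX motif ACAAAG or ACAATG.
Mag: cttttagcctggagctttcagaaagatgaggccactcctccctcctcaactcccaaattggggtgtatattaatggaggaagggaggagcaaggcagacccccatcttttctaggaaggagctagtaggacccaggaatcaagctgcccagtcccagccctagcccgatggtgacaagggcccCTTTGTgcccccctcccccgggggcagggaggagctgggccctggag
Prx: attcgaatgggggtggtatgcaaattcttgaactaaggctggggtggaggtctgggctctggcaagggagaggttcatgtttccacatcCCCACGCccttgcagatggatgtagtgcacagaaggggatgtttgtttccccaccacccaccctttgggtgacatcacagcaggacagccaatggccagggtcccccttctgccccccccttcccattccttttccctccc
Pmp22: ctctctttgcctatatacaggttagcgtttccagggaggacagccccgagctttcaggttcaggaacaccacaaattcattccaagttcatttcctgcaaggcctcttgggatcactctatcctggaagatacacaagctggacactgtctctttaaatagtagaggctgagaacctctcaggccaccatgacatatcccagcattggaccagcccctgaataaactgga
Mal: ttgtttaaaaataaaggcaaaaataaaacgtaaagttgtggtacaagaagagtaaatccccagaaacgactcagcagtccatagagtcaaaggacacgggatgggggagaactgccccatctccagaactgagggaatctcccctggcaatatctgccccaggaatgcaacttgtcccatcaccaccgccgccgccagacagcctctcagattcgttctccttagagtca
Egr2: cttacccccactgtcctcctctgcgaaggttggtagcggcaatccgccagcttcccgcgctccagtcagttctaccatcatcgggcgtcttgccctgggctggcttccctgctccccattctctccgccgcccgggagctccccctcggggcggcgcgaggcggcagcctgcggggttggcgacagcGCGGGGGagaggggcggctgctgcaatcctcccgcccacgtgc
*Mag* held 1 SOX match, at positions -67 to -62 counted from that start, and *Prx* held 1 EGR match, at positions -161 to -155. *Egr2*, which fell, also held 1 EGR match, at positions -63 to -57, and *Pmp22* and *Mal* held neither. The stretch of *Cnp*, not printed here, held 1 SOX match. Of 32851 such stretches of all genes, 11.7% held an EGR match and 23.9% a SOX match, so 1 match is common and describes these letters only.

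Across the 8 genes, 3 rose from E18.5 to 2 weeks (*Mbp*, *Mag* and *Prx*), where 65.7% of all genes tested changed, 31.5% rising and 34.2% falling. The libraries of these ages did not overlap for 1 of the 8, *Mbp*, against 61.3% of all genes, 28.9% higher and 32.4% lower at 2 weeks. From 2 to 7 weeks 6 of the 8 fell, all but *Mal* and *Cnp*, where 27.5% of all genes changed, 13.5% rising and 13.9% falling. The libraries did not overlap for 3, *Prx*, *Egr2* and *Sox10*, against 33.7% of all genes, 17.3% higher and 16.4% lower at 7 weeks. The median change of the 8 was 0.40 to 2 weeks and -1.26 after, beside -0.09 and -0.03 for all genes tested. The fall after 2 weeks depended on the libraries. Without 2 weeks replicate 1 it was called for 1 gene, *Pmp22*, without 7 weeks replicate 2 for 3 and without 7 weeks replicate 4 for 2, whereas without 2 weeks replicate 4 it was called for all 8, with values from -1.83 for *Mag* to -0.72 for *Cnp*. It was called with both E18.5 replicate 2 and 2 weeks replicate 1 left out for 4 (*Pmp22*, *Mag*, *Prx* and *Sox10*). Every one of the 8 kept a value below 0 in these fits. Over all genes, 3472 changed from 2 to 7 weeks without 2 weeks replicate 1, against 5295 with all libraries. With a trend on GC content removed, *Mbp* alone was called to 2 weeks, *Mag* at 0.67 (edgeR adjusted p = 0.135) and *Prx* at 0.54 (edgeR adjusted p = 0.154) were not, and *Pmp22* and *Mag* alone were called from 2 to 7 weeks. The 4 fibroblast markers summed to 1652 to 2191 CPM at 2 weeks and 440 to 1516 CPM at 7 weeks. Of these markers only *Col1a1* was called, falling by 2.20 (SE 0.51, edgeR adjusted p = 0.00673). *Lum* at -0.87 (edgeR adjusted p = 0.0681), *Pdgfra* at -0.44 (edgeR adjusted p = 0.284) and *Dcn* at 0.14 (edgeR adjusted p = 0.717) missed the threshold. The part of fibroblasts in the falls was not tested.

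**Figure D2:**
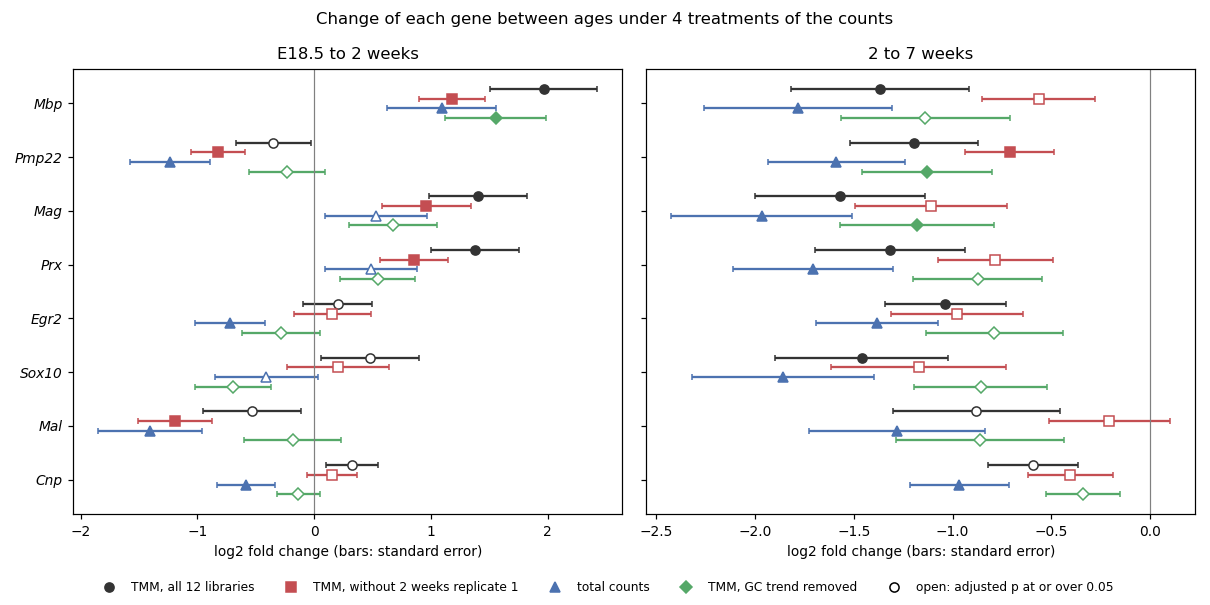
Log2 fold change (x axis, bars are SE) of each gene (y axis) from E18.5 to 2 weeks and from 2 to 7 weeks under 4 treatments of the counts. Filled markers had an edgeR adjusted p under 0.05. *Mbp* rose to 2 weeks under all 4, from 1.09 to 1.97, and its fall after 2 weeks is filled under TMM with all libraries and under total counts.

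Over the whole span from E18.5 to 7 weeks, 3 of the 8 fell (*Pmp22*, *Mal* and *Egr2*), where 71.4% of all genes changed, 34.3% rising and 37.1% falling. *Egr2* fell by 0.84 (SE 0.30, edgeR adjusted p = 0.0231), and this call was lost when any of 5 single libraries was left out, E18.5 replicates 1 and 2 and 7 weeks replicates 2, 3 and 4. The libraries did not overlap for *Pmp22* and *Mal*, 2 of the 8, against 63.4% of all genes, 30.2% higher and 33.3% lower at 7 weeks. *Sox10* was just short of the threshold at -0.98 (SE 0.43, edgeR adjusted p = 0.0550). *Mag* at -0.16 (SE 0.42, edgeR adjusted p = 0.744), *Prx* at 0.06 (SE 0.37, edgeR adjusted p = 0.893) and *Cnp* at -0.27 (SE 0.22, edgeR adjusted p = 0.296) missed the threshold. The 95% intervals of the change were -1.07 to 0.75 for *Mag*, -0.74 to 0.86 for *Prx* and -0.75 to 0.21 for *Cnp*. Over the 22 alternatives the changes ran from -1.44 to 0.25 for *Mag*, -1.22 to 0.45 for *Prx* and -1.55 to -0.038 for *Cnp*. They were called in 1, 1 and 3 of these. For *Mbp* the change was 0.60 (SE 0.44, edgeR adjusted p = 0.239). Without both libraries that stood high, a choice made after the values were seen, it was 0.85 (edgeR adjusted p = 0.00952). With any 1 library left out the change of *Mbp* missed the threshold.

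Whether the change before 2 weeks differed from the change after it was put to a separate test, which 38.4% of all genes passed. It was passed by 4 of the 8, *Mbp* (3.33, SE 0.74, edgeR adjusted p = 0.00376), *Mag* (2.97, SE 0.70, edgeR adjusted p = 0.00522), *Prx* (2.69, SE 0.62, edgeR adjusted p = 0.00489) and *Sox10* (1.94, SE 0.72, edgeR adjusted p = 0.0459). *Mbp* and *Mag* passed it in all 21 alternatives and *Prx* in 20, whereas *Sox10* passed in 9. Without 2 weeks replicate 1 the differences were 1.74 for *Mbp*, 2.07 for *Mag*, 1.64 for *Prx* and 1.38 for *Sox10*, the last with an edgeR adjusted p of 0.185. For *Pmp22* (0.85, SE 0.54, edgeR adjusted p = 0.232) and *Mal* (0.35, SE 0.72, edgeR adjusted p = 0.727) the difference missed the threshold, and without that library the values were -0.11 and -0.99.

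The scaling of the libraries bears on these values. The 4 muscle fibre markers summed to 8390 to 15823 CPM at E18.5 and to 84967 to 110909 CPM at 2 weeks. With plain library totals, the median change of all genes moved from -0.09 to -1.02 for E18.5 to 2 weeks and from -0.03 to -0.38 for 2 to 7 weeks. On that scale *Mbp* still rose to 2 weeks, by 1.09 (edgeR adjusted p = 0.0457), and 4 of the 8 fell (*Pmp22*, *Egr2*, *Mal* and *Cnp*). Of the 19276 genes tested, 2552 rose and 11917 fell to 2 weeks. All 8 fell from 2 to 7 weeks, where 948 of the 19276 genes rose and 5391 fell. *Mag* at 0.53 and *Prx* at 0.49 were above the median of all genes but missed the threshold, with edgeR adjusted p-values of 0.285 and 0.270.

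A ratio of counts within a library does not depend on its scaling. The counts of each gene were therefore divided by those of *Sox10*. Differences between libraries tied to GC content were not removed from these ratios. *Sox10* had the highest GC content of the 8, at 62.7%, and its change to 2 weeks was 0.48 with TMM and -0.69 with the GC trend removed. *Mbp* reads per *Sox10* read were 5.10, 3.43, 4.57 and 4.96 at E18.5, 17.2, 6.47, 12.1 and 8.25 at 2 weeks and 17.8, 10.9, 11.997 and 12.4 at 7 weeks. The ratio was thus higher in all libraries after birth than in any at E18.5, and it did not drop back at 7 weeks. The log2 ratio rose by 1.20 to 2 weeks (two-sided exact permutation p = 0.0286, n = 4 and 4, higher in 16 of 16 pairs) and was 1.55 higher at 7 weeks than at E18.5 (exact permutation p = 0.0286). *Mag* reads per *Sox10* read were 0.376 to 0.508 at E18.5, 0.565 to 0.919 at 2 weeks and 0.592 to 1.43 at 7 weeks, with no overlap between E18.5 and the later ages. *Prx* had ratios of 3.19 to 3.80, 3.56 to 8.82 and 5.46 to 12.1, and its log2 ratio was 1.09 higher at 7 weeks than at E18.5 (exact permutation p = 0.0286). *Pmp22* went the other way to 2 weeks, with ratios of 30.0 to 74.6 at E18.5 and 15.4 to 30.3 at 2 weeks (log2 change -0.96, exact permutation p = 0.0571). Between 2 and 7 weeks the changes of the 7 ratios lay between 0.05 for *Mag* and 0.85 for *Cnp*, whose exact permutation p of 0.0571 was the lowest of that interval. The smallest p that 4 against 4 libraries can give is 0.0286, and after adjustment over the 21 tests the lowest value was 0.12, so no ratio passed the threshold. Of the unadjusted p-values, 2 were under 0.05 for E18.5 to 2 weeks, 0 for 2 to 7 weeks and 3 for E18.5 to 7 weeks. 7 weeks replicate 1 had the highest ratio of its age for all 7 genes, and its *Sox10* count was the 41 given above.

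**Figure D3:**
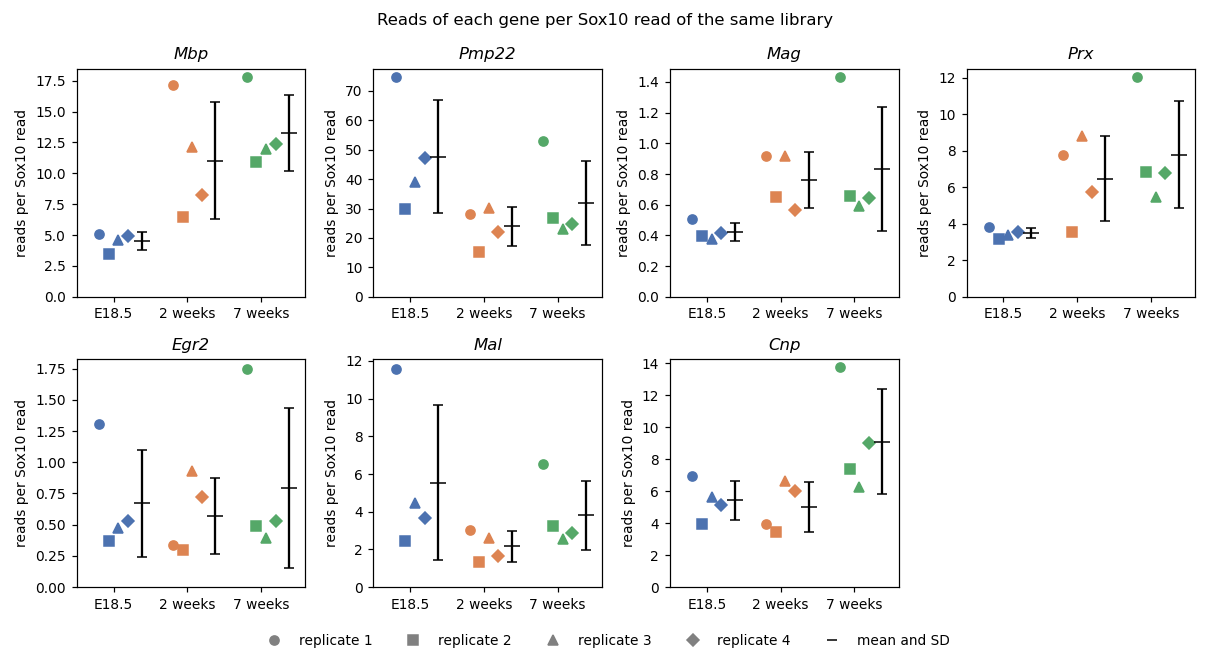
Reads of each gene per *Sox10* read of the same library (y axis from 0) by age (x axis), 1 marker per library, with the mean ± SD of 4 mice. The *Mbp* ratio was 3.43 to 5.10 at E18.5 and 6.47 to 17.8 at the later ages.

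A ratio chosen after the values were seen describes the mix of myelin RNAs. *Mbp* reads per *Pmp22* read were 0.101 ± 0.0226 (SD, n = 4) at E18.5, 0.452 ± 0.109 at 2 weeks and 0.442 ± 0.0861 at 7 weeks. The E18.5 libraries lay below all later ones, and the 2-week and 7-week ranges overlapped.

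Per kilobase of the canonical transcript, *Pmp22* had the highest mean level at every age, at 47.3 ± 11.6, 37.1 ± 22.4 and 16.2 ± 2.69 CPM per kb (SD, n = 4) at E18.5, 2 weeks and 7 weeks. At E18.5 *Cnp* (6.58 ± 2.00), *Mbp* (6.06 ± 1.99) and *Mal* (5.03 ± 2.12) followed, and these neighbours did not differ beyond their spread. At 2 weeks *Mbp* was second at 23.7 ± 20.8 CPM per kb, a spread that reached both *Pmp22* and *Cnp* at 8.24 ± 2.33. At 7 weeks *Mbp* stood at 9.18 ± 2.75 and *Cnp* at 5.46 ± 0.624 CPM per kb. *Sox10*, *Mag* and *Egr2* filled the last 3 places at all ages, between 0.331 ± 0.106 for *Egr2* at 7 weeks and 1.69 ± 1.06 for *Mag* at 2 weeks. The order depends on the length used, since *Mbp* has many isoforms, and over all annotated exons *Mbp* had rank 5 at E18.5.

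Within an age the genes moved together from mouse to mouse. Over the 12 libraries, the deviations from the age means had a Pearson r of 0.94 for *Mbp* with *Prx*, 0.91 for *Pmp22* with *Mal* and -0.14 for *Egr2* with *Sox10*. With the mean of the other 7 genes the r was 0.96 for *Pmp22*, 0.95 for *Mag*, 0.93 for *Prx* and *Mbp*, 0.91 for *Cnp*, 0.77 for *Mal*, 0.71 for *Sox10* and 0.29 for *Egr2*. *Egr2* was thus the gene least like the rest. These points share libraries and their scaling, and 2 weeks replicates 1 and 4 lie at the ends.

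**Figure D4:**
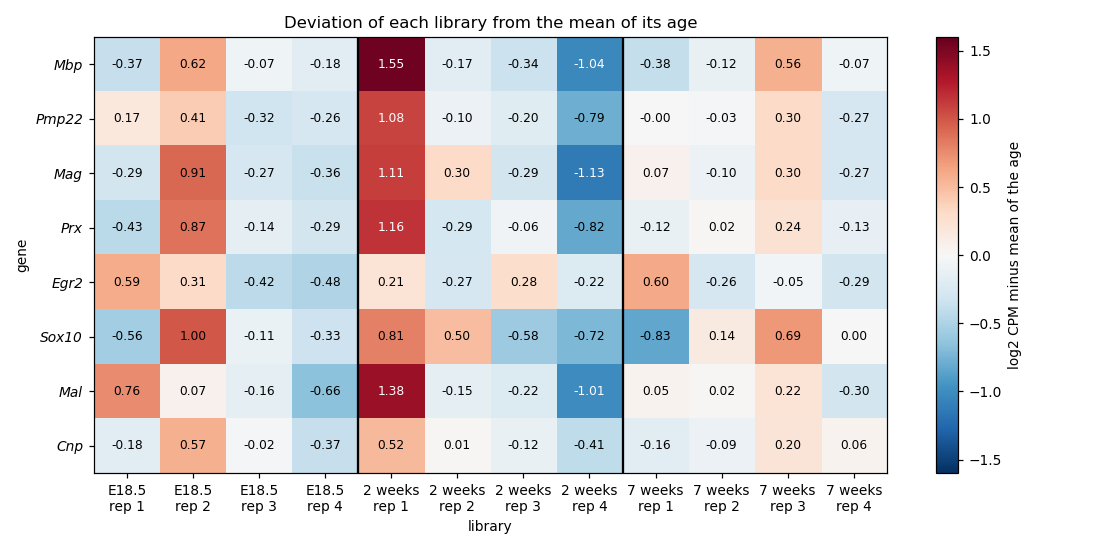
Deviation of log2 CPM from the mean of the age for each gene (y axis) in each library (x axis), red above and blue below. 2 weeks replicate 1 was above its age for all 8 genes, up to 1.55 for *Mbp*, and 2 weeks replicate 4 below for all 8.

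Outside the 8 genes, the gene whose log2 CPM over the 12 libraries was most like their mean profile was *Plekha4* (r = 0.95, of 11881 genes compared), followed by *Aatk* (0.91), *Crym* (0.91) and *Cldn19* (0.90). Among within-age deviations set against the mean of *Mag*, *Prx* and *Egr2*, the most alike were *Zfp12* (0.93), *Shc2* (0.92) and *Ccdc134* (0.91). On this measure the 8 genes ran from 0.57 for *Egr2* to 0.95 for *Mag*, which are themselves part of that mean. Moving together within an age was thus not particular to the 8 genes. *Cldn19*, a tight junction protein of Schwann cells, was among the 10 most alike by both measures.

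The rest of the myelin programme was read from a list of 16 further myelin genes, of which *Pmp2* had too few counts to test. From E18.5 to 2 weeks 9 of the 15 tested rose and the other 6 missed the threshold, with a median change of 0.68, where 31.5% of all genes rose and 65.7% changed. *Ncmap*, a protein of non-compact myelin, rose most, by 4.86 (SE 0.38, edgeR adjusted p = 3.16e-07), from 0.159 to 0.249 CPM at E18.5 to 3.08 to 10.7 CPM at 2 weeks. *Nfasc*, an adhesion protein of the node of Ranvier and its flanks, rose by 2.91 (SE 0.42, edgeR adjusted p = 4.80e-05). From 2 to 7 weeks 5 of the 15 fell, where 13.9% of all genes did, with a median of -0.83, among them *Cldn19* by 1.51 (SE 0.42, edgeR adjusted p = 0.0162). *Gjc3*, a connexin of Schwann cells, fell by 1.42 (SE 0.38, edgeR adjusted p = 0.0146). Without 2 weeks replicate 1 only the fall of *Cd9*, a tetraspanin of many cells, was called, at -0.68 (edgeR adjusted p = 0.0265), and without 7 weeks replicate 4 there were 3 calls. At 7 weeks against E18.5, 7 were higher and 3 lower, beside 34.3% and 37.1% of all genes. *Ncmap* had risen by 4.23 (SE 0.38, edgeR adjusted p = 3.42e-07) and *Nfasc* by 2.48 (SE 0.42, edgeR adjusted p = 0.000119). *Gjc3* had fallen by 1.99 (SE 0.39, edgeR adjusted p = 0.000399). *Gal3st1*, an enzyme that makes the myelin lipid sulfatide, fell by 1.08 (SE 0.45, edgeR adjusted p = 0.0439), a call that was lost when any 1 of 6 libraries was left out, E18.5 replicates 1 and 2, 2 weeks replicate 2 and 7 weeks replicates 1, 2 and 4.

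Of 17 regulators and signals of Schwann cells, many of which other cells of muscle use too, 8 fell and 1 rose from E18.5 to 2 weeks, where 34.2% of all genes fell and 65.7% changed. The median change was -0.57. *Nrg1*, the growth factor by which axons drive Schwann cells, was at 0.608 to 1.98 CPM at E18.5 and 0 to 0.131 CPM at 2 weeks (edgeR adjusted p = 4.07e-05). This is the level of 1 of the 2 Ensembl IDs that carry the symbol, and the other was not analysed here. *Pou3f2*, a factor of the stage before myelination, went from 0.344 to 2.27 CPM to 0.0131 to 0.134 CPM (edgeR adjusted p = 0.000352). *Erbb3*, the receptor for *Nrg1*, fell by 1.97 (SE 0.17, edgeR adjusted p = 5.32e-07), from 39.2 to 59.0 CPM to 10.6 to 15.0 CPM, a step in which no libraries overlapped. *Lgi4*, a secreted protein that Schwann cells need to myelinate on time, rose by 0.89 (SE 0.24, edgeR adjusted p = 0.00561), but was at -0.024 with plain library totals. Between 2 and 7 weeks 3 fell and 1 rose, where 27.5% of all genes changed. *Pou3f1*, which acts just before *Egr2*, fell by 1.89 (SE 0.46, edgeR adjusted p = 0.00822), and *Nab2*, a partner of *Egr2*, by 0.97 (SE 0.27, edgeR adjusted p = 0.0177). *Tead1*, a factor of the Hippo pathway that muscle fibres use as well, rose by 0.80 (SE 0.19, edgeR adjusted p = 0.00773). Over the whole span 12 were lower, where 37.1% of all genes were and 71.4% changed, and 1, *Tead1*, was higher, by 1.19 (SE 0.19, edgeR adjusted p = 7.87e-05), which was -0.073 with plain library totals.

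Genes of immature and non-myelinating Schwann cells made the third list, of which 13 of 14 were tested and *Gfap* was not. To 2 weeks 9 fell and 1 rose, where 34.2% of all genes fell and 65.7% changed, with a median of -1.66. *Ngfr*, the p75 neurotrophin receptor, fell by 3.01 (SE 0.27, edgeR adjusted p = 9.84e-07), from 18.53 to 36.3 CPM at E18.5 to 2.52 to 4.41 CPM. *Sox2*, a factor that holds Schwann cells immature, went from 0.0947 to 0.527 CPM to 0.0137 to 0.0412 CPM (edgeR adjusted p = 0.000606). *Jun*, a factor of many cells that opposes *Egr2* in Schwann cells, rose by 0.98 (SE 0.25, edgeR adjusted p = 0.00343). From 2 to 7 weeks 3 fell, *Gap43*, a protein of growing axons and immature Schwann cells, by 3.13 (SE 0.55, edgeR adjusted p = 0.00124) and *Fabp7* by 1.54 (SE 0.33, edgeR adjusted p = 0.00454) among them, and without 2 weeks replicate 1 the count was again 3. At 7 weeks against E18.5, 10 were lower and 1 higher, where 37.1% and 34.3% of all genes were. *Gap43* was lower by 5.82 (SE 0.58, edgeR adjusted p = 9.63e-07).

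**Figure D5:**
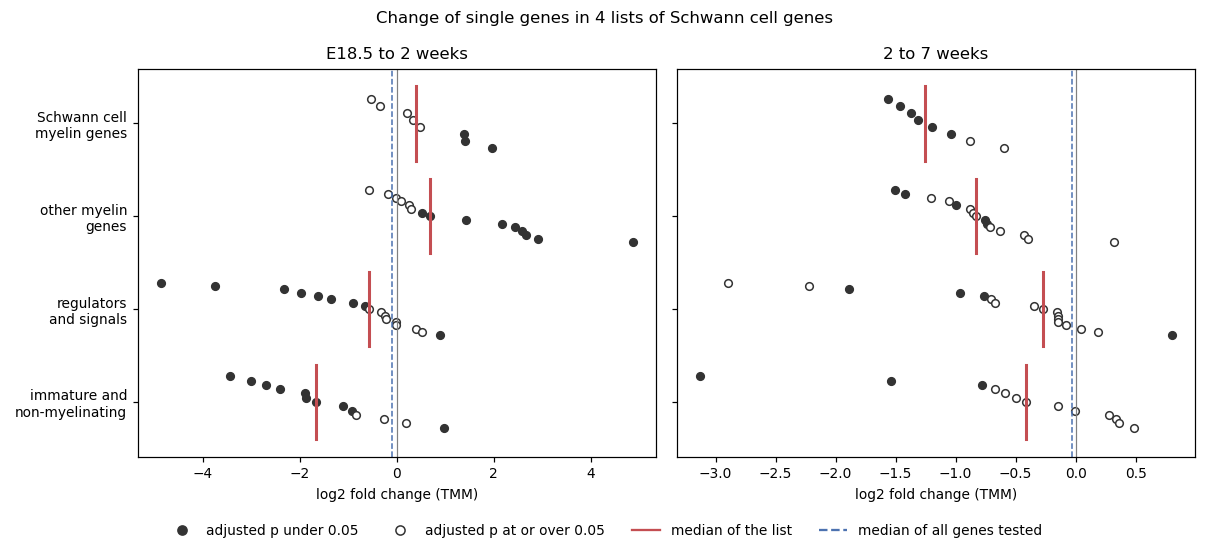
Log2 fold change (TMM, x axis) of each gene in 4 lists (y axis) from E18.5 to 2 weeks and from 2 to 7 weeks, filled where the edgeR adjusted p was under 0.05, with the median of each list in red and of all genes tested as a dashed line. To 2 weeks the median of the 8 genes was 0.40 and that of the immature and non-myelinating genes -1.66.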

How the data were processed

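RNA of TA muscle of 12 WT mice, 4 at each of 3 ages, was sequenced with a stranded kit after polyA selection. The authors trimmed reads with cutadapt 1.10 and mapped them with STAR 2.5.3a, and what they deposited are unnormalized counts for each Ensembl gene, made with HTSeq 0.6.1p1 (versions from the submitters' processing notes). The methods name GRCm39 and the processing notes mm10. The annotation and strand setting of the counting are not given in the sources used here. RefSeq coordinates and promoters are of GRCm38.p6, and symbols, lengths, GC content and overlaps come from GENCODE vM39. All per-sample columns were used.

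After TMM scaling, edgeR 4.0.16 under R 4.3.3 (with limma 3.58.1) was fitted once to all 12 libraries, by age, and its quasi-likelihood test was used. Of 55450 genes, 19276 passed filterByExpr, and the threshold was an adjusted p of 0.05. The biological coefficient of variation was 0.279, so the spread between mice, not counting error, set the precision for all but the lowest counts. The 18 pairs of replicates differed by more than sampling noise (chi-square per degree of freedom at least 34.3). Ratios to *Sox10* used a pseudocount of 0.5 and a two-sided exact permutation test over 70 regroupings.

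The alternatives were total-count scaling, with and without the 20 most abundant and 37 mitochondrially encoded genes, upper-quartile scaling, a replicate block, DESeq2 1.42.0, a stricter filter (10 counts or more in each library) or none, removal of a GC trend, only the 8 libraries compared, and each library left out. Leaving out E18.5 replicate 2 and 2 weeks replicate 1 together was added after seeing the data. The tests were run on simulated data first. The 8 genes and the lists were chosen with earlier results of these data known. Of the further myelin genes, 2 are not reported here. Of each list, the 2 genes with the largest called rise and fall per comparison were named, as were genes whose role needed saying, and likeness was computed over genes whose mean log2 CPM reached 1. Figures were drawn with matplotlib 3.10.9.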

Additional observations from a re-analysis of the deposited data

Results flagged for a closer look

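Each set of 4 libraries of an age was searched for a value far from the other 3, by Dixon's test at 95%. Of 180 sets 13 were singled out, where 9 would be expected by chance in independent sets. The sets share libraries, and the ratios share *Sox10* counts, so how many of the 13 are chance cannot be told.

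Among the 8 genes, *Mbp* in 2 weeks replicate 1 (118 CPM, others 19.6 to 35.6 CPM), *Mag* in E18.5 replicate 2 (2.24 CPM, others 0.927 to 0.985 CPM) and *Prx* in E18.5 replicate 2 (17.96 CPM, others 7.28 to 8.93 CPM) were far above the other mice of their age. In 7 weeks replicate 1 the reads per *Sox10* read were high for *Egr2* (1.75, others 0.392 to 0.531), *Mag* (1.43, others 0.592 to 0.656) and *Pmp22* (53.0, others 23.0 to 26.6), ratios that share the same *Sox10* count of 41.

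Among the other genes, 2 weeks replicate 1 was high for *Cadm4* (9.94 CPM, others 4.35 to 4.94 CPM), *Cdh19* (2.82 CPM, others 1.28 to 1.42 CPM) and *Ugt8a* (6.57 CPM, others 0.810 to 1.68 CPM). E18.5 replicate 2 was high for *Cadm4* (12.7 CPM, others 3.84 to 5.23 CPM) and *Nfasc* (0.660 CPM, others 0.210 to 0.256 CPM). *Gjb1* was high in E18.5 replicate 3 (0.219 CPM, others 0.0139 to 0.0348 CPM) and *Zeb2* in E18.5 replicate 1 (103 CPM, others 71.98 to 75.3 CPM).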

How the results depend on the processing

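The rise of *Mbp* to 2 weeks, the falls of *Pmp22* from 2 to 7 weeks and of *Pmp22* and *Mal* over the whole span passed the threshold in all 22 alternatives, with no exception. Counts of called genes depended on the scaling and on single libraries. Of the values that turned direction, those of *Lgi4* (0.89 with TMM) and *Tead1* (1.19) were past the threshold with TMM. The cause was not tested.

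With total counts, 5 of the 8 genes changed from E18.5 to 2 weeks and 7 from E18.5 to 7 weeks, 15 and 9 of the regulators and signals changed in the first and second interval, and 12 of the other myelin genes from 2 to 7 weeks. Of the 19276 genes tested, 14469 changed in the first interval, 6339 in the second and 15589 over the whole span. Reversed values were *Egr2* -0.72, *Sox10* -0.41, *Cnp* -0.58 and *Lgi4* -0.024 to 2 weeks, *Mbp* -0.69, *Prx* -1.22 and *Tead1* -0.073 from E18.5 to 7 weeks, and *Mal* -0.13 for the difference of the intervals. Without the most abundant genes in the totals, 9 other myelin genes and 8 regulators changed from 2 to 7 weeks and 5 of the 8 genes from E18.5 to 7 weeks, and the reversed values were *Egr2* -0.31, *Sox10* -0.0081, *Cnp* -0.18, *Mbp* -0.20 and *Prx* -0.73. In that fit 5787 of the 19276 genes changed from 2 to 7 weeks and 14723 from E18.5 to 7 weeks. *Prx* from E18.5 to 7 weeks, at 0.060 with TMM, was also -0.18 with upper-quartile scaling, -0.10 with at least 10 counts, -0.33 without the GC trend and -0.032 with the 8 libraries alone.

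With the GC trend removed, 1 of the 8 genes changed to 2 weeks (*Mbp*, by 1.55), 2 from 2 to 7 weeks and 5 from E18.5 to 7 weeks, 2 differed between the intervals, and 2 regulators changed from 2 to 7 weeks. *Egr2* (-0.29), *Sox10* (-0.69) and *Cnp* (-0.13) reversed to 2 weeks. With E18.5 replicate 2 and 2 weeks replicate 1 left out, an alternative chosen after seeing the data, 5 of the 8 changed to 2 weeks and 2 other myelin genes from 2 to 7 weeks, *Mag* from E18.5 to 7 weeks was 0.25 and the difference of *Mal* -1.01. Calls over all genes are not set beside the counts of these fits.

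The replicate numbers were shared between ages. Of 12 same-number pairs 5 had a correlation of deviations over 0.1 (range -0.28 to 0.51), which cannot show whether the numbers pair the mice. With the replicate number as a block, 4 of the 8 genes changed to 2 weeks, 5 from 2 to 7 weeks and 3 from E18.5 to 7 weeks, and the difference of *Mal* was -0.069. In that fit 12470 of the 19276 genes changed to 2 weeks.

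With 1 library left out, the 8 genes gave 3 to 5 calls to 2 weeks, 1 to 8 from 2 to 7 weeks, 2 to 4 from E18.5 to 7 weeks and 3 to 5 for the difference. Over all genes the calls were 11810 to 13199 to 2 weeks, 13244 to 13929 from E18.5 to 7 weeks and 5273 to 8297 for the difference. Other myelin genes gave 1 to 7 calls and regulators 2 to 6 from 2 to 7 weeks, and all genes 3472 to 6146. Ranges that crossed 0 were *Prx* -0.083 to 0.45 and *Mag* -0.29 to 0.25 from E18.5 to 7 weeks, and the differences of *Pmp22* -0.11 to 1.29 and *Mal* -0.99 to 0.88. For ratios to *Sox10* they were *Egr2* -0.50 to 0.17 and *Cnp* -0.29 to 0.023 to 2 weeks, *Mag* -0.25 to 0.18 and *Egr2* -0.12 to 0.64 from 2 to 7 weeks, and *Egr2* -0.33 to 0.53 and *Mal* -0.70 to 0.048 from E18.5 to 7 weeks.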
